A study of Mus musculus with 24 samples.

Results

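Genes that mark resting astrocytes were followed through mouse cortex 1 day after an experimental stroke. They are the water channel gene Aqp4, the connexin genes Gja1 and Gjb6, the transporter genes Slc39a12 and Slc4a4, the enzyme genes Aldh1l1 and Aldoc, the calcium-binding protein gene S100b, the receptor gene Fgfr3 and the transcription factor gene Sox9. These 10 genes were chosen by symbol from 14769 genes listed in any table, and all 10 were listed in each of the 4 tables. Aqp4 was higher and Slc39a12 and Gja1 were lower in PI than in CL cortex of both genotypes. Gjb6 was called lower in the wild type, a call lost without any 1 of 8 libraries. In the knockout it ran the same way without a call, and a difference between genotypes was not shown. No member was called between genotypes.

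Astrocytes are the glial cells that clear potassium, glutamate and water from the space around neurons and that wrap blood vessels with processes called endfeet. Neighbouring astrocytes are joined by gap junctions made of connexins into a network through which ions and metabolites pass. After injury astrocytes become reactive, raising intermediate filament and acute-phase genes, while the genes of the resting state change in differing ways. Aqp4, concentrated in the endfeet, is the main water channel of the brain and is studied in brain swelling after stroke.

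Male mice aged 3 to 4 months had a middle cerebral artery closed by a filament for 1 h and were sampled after 1 day of reperfusion. The wild type (WT) and the knockout (KO) of ciRS-7, a circular RNA also called Cdr1as, carry the same strain label, C57BL/6N-Cdr1asem1Nikr, so the labels give both genotypes by the line in which Cdr1as was edited. From each animal there was a cortex library marked CL and another marked PI, terms that the labels do not spell out and that are used here as given. The 4 groups (CL and PI of WT, CL and PI of KO) held 6 libraries each, 24 in all, from 6 animals of each genotype, all of them operated.

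Expression was deposited as log2 CPM, the logarithm of a gene's reads scaled to one library size, in 4 tables of 2 groups each. Within every gene and group the 2 lowest of the 6 values were tied and the 2 highest were tied, because the extreme values had been replaced by the group's quartiles. A group is therefore described by its lower quartile, its median and its upper quartile, which are the lowest, middle and highest deposited values, and overlap is judged on the 4 inner libraries that can be recovered. Counts of animals higher or lower in PI use the deposited values, so the true order within an animal is not known where one of its libraries was drawn in. Where the quartile ranges of PI and CL do not overlap, every animal must go the same way, so such a count adds nothing to the ranges. Differences are those of trimmed means on the log2 scale with their standard error (SE, n = 6 libraries per group), and a call means an adjusted p below 0.05 over all genes of the table (limma's empirical Bayes step, Benjamini-Hochberg). The effective depth, read from the step between low values, was 3.74 to 10.5 megareads per library (median 6.91). At that depth a limit of 3 reads, for counting error alone, equals 0.286 to 0.802 CPM. Cdr1as, the target, had quartiles of 3434 and 3801 CPM in CL WT and of 2610 and 2931 CPM in PI WT, and its highest recoverable value in KO was 0.148 CPM in CL and 0.169 CPM in PI. Neuron markers, which cortex should hold, were abundant, with a sum over 10 genes of 5928 to 7941 CPM per library.

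The promoters of the 2 members that were lower in PI in both genotypes are shown, since these members moved together and lie on different chromosomes. Sequences are from RefSeq on build GRCm38.p6, which held an entry for 8 of the 10 members, and run 5′ to 3′ on the plus strand. For Gja1 the 250 bases before the RefSeq start are given (chr10:56377050-56377299), with capitals at a match to the AP-1 motif TGANTCA, and for Slc39a12 the 168 bases that lie before the GENCODE gene start (chr2:14388148-14388315), with capitals at a match to the TATA motif TATAAA.
Gja1: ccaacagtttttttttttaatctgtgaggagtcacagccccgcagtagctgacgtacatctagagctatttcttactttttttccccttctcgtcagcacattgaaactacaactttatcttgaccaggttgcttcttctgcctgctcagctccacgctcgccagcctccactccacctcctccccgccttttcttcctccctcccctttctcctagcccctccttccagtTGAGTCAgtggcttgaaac
Slc39a12: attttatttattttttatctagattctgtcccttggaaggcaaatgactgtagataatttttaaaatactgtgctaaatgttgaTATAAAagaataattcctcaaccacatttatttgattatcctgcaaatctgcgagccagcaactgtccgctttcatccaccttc
The AP-1 match of Gja1 lay 19 to 13 bases before the start, and this motif was found, on either strand, in 6.749% of 32851 mouse promoters of the same 250 bases. The TATA match of Slc39a12 lay 166 to 161 bases before its RefSeq start, and TATAAA was found in 12.368% of those promoters. Searched in the same way, the motifs AACAAT (SOX), TTGGCA (NFI) and TTCNNNGAA (STAT) had no match in either window, and they occur in 9.424%, 12.28% and 7.02% of promoters. Matches are descriptions of letters and no binding was measured.

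In the comparison of PI with CL cortex of the same animals, 4 of the 10 members were called in WT, 1 higher and 3 lower, where 10.6% of all 14489 genes were called, 5.2% higher and 5.4% lower. In KO 3 of the 10 were called, 1 higher and 2 lower, where 10% of all 14338 genes were called, 5.11% higher and 4.94% lower. All 3 called in KO were also called in WT with the same direction. The median difference of the 10 members was -0.13 in WT and -0.12 in KO, beside medians over all genes of 0.01 and -0.00068. The inner values of PI and CL did not overlap for 7 members in WT, where 26.3% of all genes did not overlap, and for 5 in KO, where the share was 26.8%. Of all genes called, 49.1% were higher in PI in WT and 50.8% in KO. These shares were 37.7% and 36.7% with groups centred on the median of all genes, and 60.3% and 63.5% with groups centred on genes of at least 32 CPM, where 5 and 3 members were called in WT and 3 in KO under both. Tissue RNA of this kind cannot tell fewer astrocytes from less RNA per astrocyte.

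**Figure D1:**
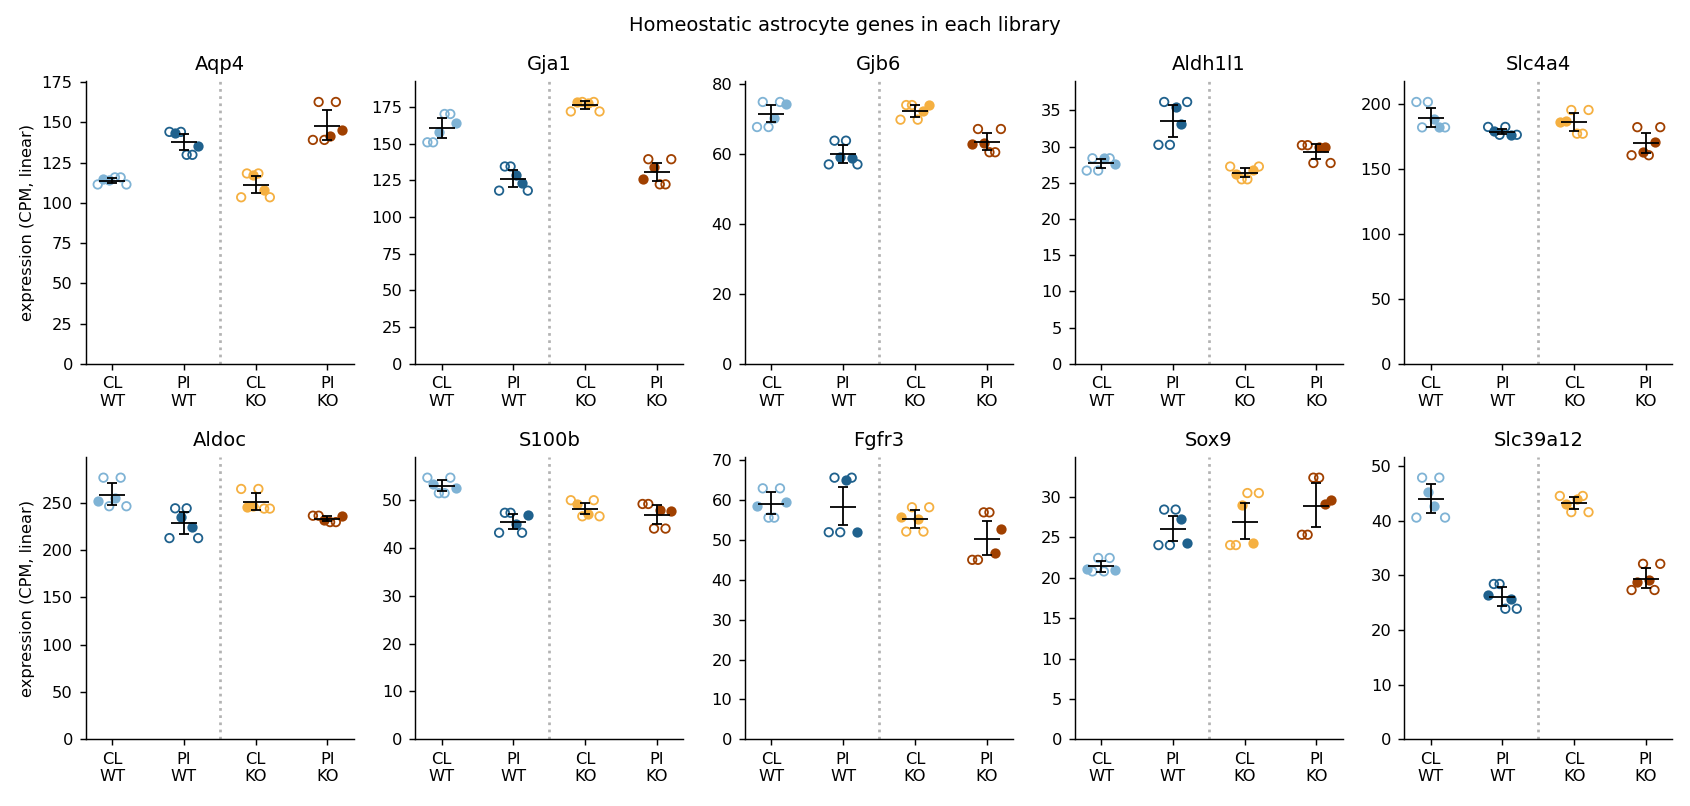
Expression of each member in CPM on a linear axis from 0, by group, with deposited values from the PI WT and CL WT table left of the dotted line and from the PI KO and CL KO table right of it. Filled circles are libraries as measured, open circles the tied libraries drawn in to a quartile, and bars the trimmed mean with its SE (n = 6). Aqp4 stands higher in PI, and Gja1 and Slc39a12 stand lower in PI, in both genotypes.

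Aqp4 (chromosome 18, 15389496 to 15410982, minus strand, in GRCm38 with GENCODE M21, as for all gene positions here) encodes the water channel of astrocyte endfeet and was higher in PI. In WT its quartiles and median were 111, 114 and 116 CPM in CL and 130, 139 and 144 CPM in PI. In KO they were 104, 113 and 118 CPM in CL and 139, 143 and 163 CPM in PI. By the deposited values PI lay above CL in 6 of 6 WT and 6 of 6 KO animals, and the inner values of the groups did not overlap in either genotype. Aqp4 rose 1.21-fold in WT (log2 difference 0.27, SE 0.0614, adjusted p = 0.0125) and 1.33-fold in KO (0.41, SE 0.0915, adjusted p = 0.0140). When the prior variance was given no trend with expression, the adjusted p was 0.0558 in WT and 0.0714 in KO, so both calls rest on that trend.

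Gja1 (chromosome 10, 56377330 to 56402513) encodes the most abundant astrocyte connexin and was lower in PI. Its CL WT values were 151, 161 and 170 CPM (lower quartile, median, upper quartile) against 118, 126 and 134 CPM in PI WT. The CL KO values were 172, 178 and 178 CPM and the PI KO values 122, 130 and 139 CPM. By deposited values PI was the lower of the pair in all 12 animals, and the inner values did not overlap. Gja1 fell by 21.5% in WT (log2 difference -0.35, SE 0.0782, adjusted p = 0.0126) and fell by 25.9% in KO (-0.43, SE 0.0682, adjusted p = 0.00185). Without the trend in the prior variance the adjusted p in WT was 0.0642, while Gja1 stayed called in KO.

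Gjb6 (chromosome 14, 57123303 to 57133611) encodes the second astrocyte connexin. Quartiles and median were 67.6, 72.1 and 74.8 CPM in CL WT and 57.0, 58.9 and 63.7 CPM in PI WT. In KO they were 69.7, 73.1 and 73.9 CPM in CL and 60.4, 63.0 and 67.1 CPM in PI. All 12 animals had the lower deposited value in PI and the inner values did not overlap, but only the WT difference was called (-0.26, SE 0.0764, adjusted p = 0.0494), and in KO it was -0.19 (SE 0.0715, adjusted p = 0.122). The WT call was lost without any 1 of 8 libraries (PI WT replicates 1, 3, 5 and 6, CL WT replicates 2, 4, 5 and 6), with adjusted p up to 0.122. It was also lost when groups were centred on genes of at least 32 CPM (adjusted p = 0.0845) or with no trend in the prior variance (adjusted p = 0.120), and held with the animal as a block (adjusted p = 0.00939). The block test called 15.7% of all genes in WT, against 10.6% in the main test, and made more false calls on simulated data. That limit holds for each member below that passed with the block.

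Slc39a12 (chromosome 2, 14388316 to 14494977), which encodes a zinc importer of the SLC39 family, had the largest difference among the 10 members in both genotypes. It stood at 40.6, 44.0 and 47.9 CPM in CL WT and at 23.9, 26 and 28.4 CPM in PI WT. In KO it stood at 41.6, 43.5 and 44.5 CPM in CL and at 27.3, 29.0 and 32.1 CPM in PI. The highest PI quartile was well under the lowest CL quartile in each genotype, and all 12 animals had the lower deposited value in PI. Slc39a12 fell by 40.8% in WT (log2 difference -0.76, SE 0.106, adjusted p = 0.000756) and fell by 31.9% in KO (-0.55, SE 0.0924, adjusted p = 0.00266). It kept its call in both genotypes under every alternative tried, including with no trend in the prior variance.

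Slc4a4 (chromosome 5, 88886818 to 89239653) encodes the sodium bicarbonate cotransporter through which astrocytes buffer acid, and it was not called. Its quartiles and median were 182, 185 and 202 CPM in CL WT and 176, 178 and 182 CPM in PI WT. In KO they were 177, 187 and 195 CPM in CL and 161, 167 and 182 CPM in PI. The groups overlapped in both genotypes, although no animal had the higher deposited value in PI. Its difference was -0.08 in WT (95% interval -0.21 to 0.05, adjusted p = 0.458) and -0.14 in KO (-0.30 to 0.03, adjusted p = 0.299).

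Aldh1l1 (chromosome 6, 90486427 to 90600203), a folate-metabolising dehydrogenase widely used as an astrocyte marker, ran in the direction of Aqp4. It stood at 26.7, 28.0 and 28.4 CPM in CL WT and at 30.2, 34.3 and 36.2 CPM in PI WT. In KO it stood at 25.5, 26.5 and 27.2 CPM in CL and at 27.7, 29.9 and 30.2 CPM in PI. All 12 animals had the higher deposited value in PI, and inner values overlapped in KO only. The WT difference of 0.27 (SE 0.0934) missed the threshold (adjusted p = 0.0843) and passed with the animal as a block (adjusted p = 0.0246) or without PI WT replicate 1 or 3 (adjusted p = 0.0213 and adjusted p = 0.0230). In KO the difference was 0.15 (SE 0.0819, adjusted p = 0.293). Aldh1l1 shares 499 exon bases (11.05%) with the antisense gene Gm15756 and 105 (2.325%) with Gm45901 on its own strand. Neither the use of strand nor the handling of shared bases in counting is given, so its level is uncertain to that extent.

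Aldoc (chromosome 11, 78322968 to 78327781) encodes the brain form of the glycolytic enzyme aldolase. Quartiles and median were 246, 254 and 276 CPM in CL WT, 213, 229 and 244 CPM in PI WT, 244, 246 and 264 CPM in CL KO, and 229, 234 and 236 CPM in PI KO. Each animal had the lower deposited value in PI, which follows from quartile ranges that did not overlap. The inner values, however, overlapped in WT and did not in KO. Neither difference was called, at -0.18 in WT (SE 0.0795, adjusted p = 0.189) and -0.11 in KO (SE 0.0578, adjusted p = 0.277). With the animal as a block the WT difference passed (adjusted p = 0.0366).

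S100b (chromosome 10, 76253853 to 76261159) encodes a calcium-binding protein of astrocytes that oligodendrocytes also make. It stood at 51.4, 52.9 and 54.6 CPM in CL WT and 43.1, 45.9 and 47.3 CPM in PI WT, without overlap, and was lower in PI in 6 of 6 animals. In KO the values were 46.5, 48.1 and 49.9 CPM in CL and 44.0, 47.7 and 49.1 CPM in PI, with overlap. The WT difference of -0.22 (SE 0.0681) missed the threshold at adjusted p = 0.0562, and passed with the animal as a block (adjusted p = 0.0425) or with groups centred on the median of all genes (adjusted p = 0.0285). In KO the difference was -0.04 (SE 0.0779, adjusted p = 0.810). Oligodendrocyte markers moved alongside it, since their sum over 10 genes was 2242 to 2444 CPM in CL WT and 1581 to 2208 CPM in PI WT. Their median difference was -0.36, and 2 of 10 genes were called lower, where 5.4% of all genes were. In KO that sum was 1777 to 2426 CPM in CL and 1750 to 1973 CPM in PI, with a median difference of -0.06 and none of 10 called, and the part of these cells in the S100b values was not tested.

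Fgfr3 (chromosome 5, 33721674 to 33737068), a fibroblast growth factor receptor of the astrocyte lineage, showed no called difference. Its values were 55.5, 59.0 and 62.9 CPM in CL WT, 51.9, 58.1 and 65.6 CPM in PI WT, 52.1, 55.4 and 58.1 CPM in CL KO, and 45.0, 49.6 and 56.9 CPM in PI KO. PI and CL overlapped in both genotypes, and PI was higher in 3 of 6 WT and 1 of 6 KO animals. The difference was -0.02 in WT (95% interval -0.25 to 0.21) and -0.13 in KO (-0.37 to 0.10), so changes of the size seen for Slc39a12 lie outside both intervals. Fgfr3 shares 998 exon bases (13.942%) with G630022F23Rik on the opposite strand, and its reads are uncertain for the same reason as those of Aldh1l1.

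Sox9 (chromosome 11, 112782224 to 112787760), a transcription factor that in the adult brain is largely restricted to astrocytes, stood at 20.8, 21.0 and 22.5 CPM in CL WT and at 24.1, 25.8 and 28.5 CPM in PI WT. All 6 WT animals had the higher deposited value in PI, and the inner values did not overlap. In KO it stood at 24.1, 26.5 and 30.5 CPM in CL and at 25.3, 29.4 and 32.4 CPM in PI, which overlapped, with 5 of 6 animals higher in PI. The WT difference of 0.28 (SE 0.0947) was not called (adjusted p = 0.0811) but passed with the animal as a block (adjusted p = 0.0415). In KO it was 0.10 (SE 0.142, adjusted p = 0.718). Over the 10 members, treating the 2 libraries of an animal as a pair raised the number called in WT from 4 to 8, 3 higher and 5 lower, and left KO at 3. Over all genes the same paired test called 15.7% (2275 genes) for WT and 15% (2154 genes) for KO, and on simulated data it made more false calls than the unpaired test.

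**Figure D2:**
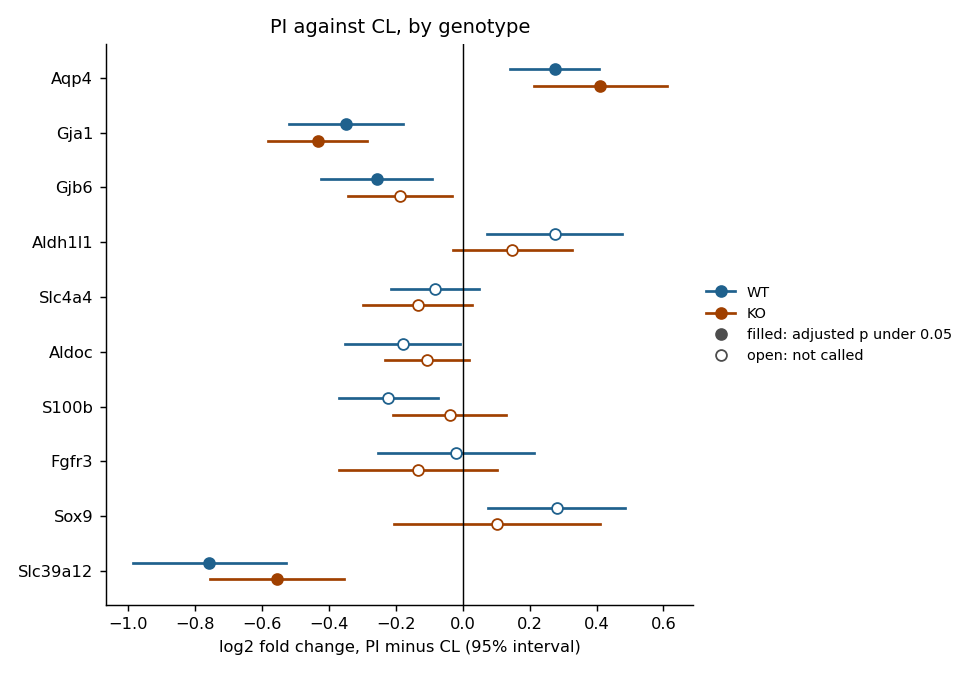
Log2 difference of PI from CL for each member, with the 95% interval as a line, in WT (blue) and KO (brown). Filled points passed an adjusted p of 0.05. Aqp4 lies right of 0, and Gja1 and Slc39a12 lie left of it, in both genotypes, whereas the intervals of Fgfr3 and Slc4a4 cross 0.

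Because members moved in both directions, their ratio within a library shows the shift without reference to the scaling of the table. The log2 ratio of Aqp4 to Gja1 ran from -0.556 to -0.397 in CL WT (median -0.512) and from 0.0107 to 0.29 in PI WT (median 0.0969). In KO it ran from -0.732 to -0.585 in CL (median -0.664) and from 0.0509 to 0.413 in PI (median 0.177). By the deposited values, every CL library thus had fewer Aqp4 than Gja1 reads and every PI library had more, with the ratio higher in PI in 12 of 12 animals. The ratio of Aqp4 to Slc39a12 went from 1.26 to 1.46 in CL WT up to 2.33 to 2.50 in PI WT, and from 1.22 to 1.5 in CL KO up to 2.12 to 2.57 in PI KO. The 2 connexins shifted less against each other, with a log2 ratio of Gja1 to Gjb6 of 1.01 to 1.28 in CL WT and 1.02 to 1.19 in PI WT, which overlap. In KO that ratio was 1.22 to 1.35 in CL and 1.00 to 1.09 in PI, which do not. Such ratios use the drawn-in values, and read counts are not corrected for the length of the transcripts. Gja1 and Slc39a12 were set against Aqp4 because they differed from it in direction, and the quartile ranges of all of them separated PI from CL. The separation of these ratios, and its count of animals, follows from that and is no further evidence of a shift.

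**Figure D3:**
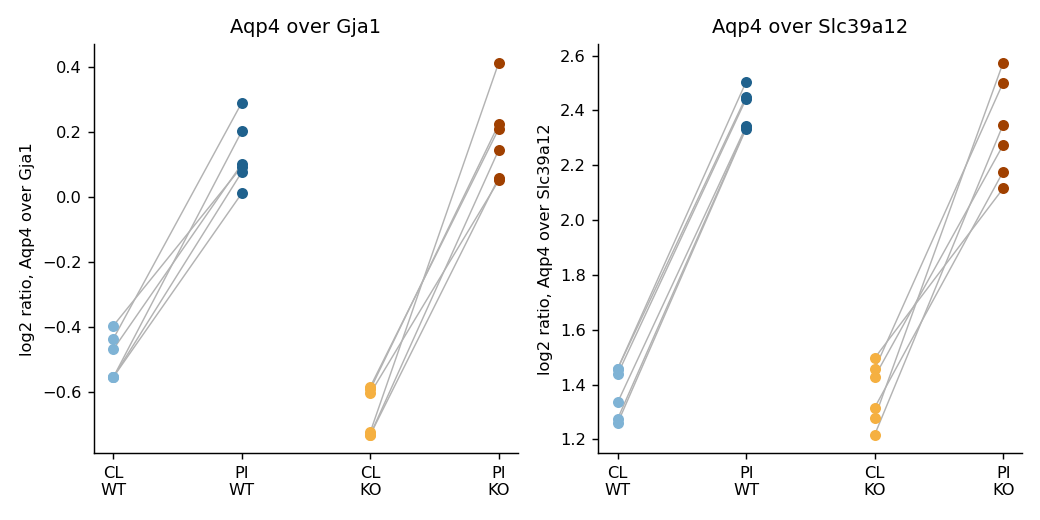
Log2 ratio of Aqp4 to Gja1 (left) and of Aqp4 to Slc39a12 (right) in each library, with lines joining the CL and PI libraries of an animal. Both ratios are higher in PI in all 6 WT and all 6 KO animals, with no overlap between CL and PI. This follows from the choice of genes whose deposited values separate in opposite directions.

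Relatives of the members were then examined, family by family. Of 9 other aquaporins only Aqp11, an intracellular form, was listed, and it fell in KO (-0.61, SE 0.174, adjusted p = 0.0443) and stood at -0.13 (SE 0.142, adjusted p = 0.649) in WT. Among 8 listed connexins and pannexins, Gjb2, a connexin better known from the meninges and the inner ear, rose by 1.06 in both genotypes (adjusted p = 0.0483 in WT and adjusted p = 0.00900 in KO) from medians of 2.34 and 2.83 CPM. Gjc3, which oligodendrocytes express, fell in WT (-0.46, SE 0.105, adjusted p = 0.0140) and was at -0.37 (adjusted p = 0.113) in KO. The other 6 were not called.

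No other zinc importer was called lower. Of 11 listed SLC39 relatives, 3 rose and none fell in each genotype, where 5.2% of all genes rose in WT and 5.11% in KO. Their median differences were 0.28 in WT and 0.26 in KO. Slc39a14, an importer of zinc and iron induced in acute-phase responses, rose by 0.75 (SE 0.109) in WT and 0.60 (SE 0.120) in KO, and Slc39a1 by 0.53 (SE 0.0995) and 0.56 (SE 0.0864). Slc39a6 rose in WT (0.28, SE 0.0699) and stood at 0.26 (SE 0.0994) without a call in KO. Slc39a7 rose in KO (0.41, SE 0.107) and stood at 0.34 (SE 0.118) without a call in WT. Among bicarbonate transporters, of which 5 were listed in WT and 6 in KO, Slc4a10, a neuronal member, rose in WT (0.29, SE 0.0768, adjusted p = 0.0278) and was at 0.22 in KO (adjusted p = 0.0529).

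Of 4 listed aldehyde dehydrogenases related to Aldh1l1, Aldh1a2, which makes retinoic acid, rose by 1.85 (SE 0.142) in WT and 1.66 (SE 0.113) in KO. Aldh1l2, the mitochondrial counterpart of Aldh1l1, rose by 1.16 (SE 0.178) and 1.68 (SE 0.274), from medians of 3.03 and 1.88 CPM. Aldh1a1 fell by 0.80 (SE 0.133) and 0.61 (SE 0.138) on the log2 scale.

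Fgfrl1, an FGF receptor-like protein without a kinase, rose by 1.10 (SE 0.220) in WT and 0.94 (SE 0.219) in KO, and Fgfr1 rose in WT (0.32, SE 0.0899, adjusted p = 0.0380) and stood at 0.04 (SE 0.0856) without a call in KO. Fgfr2 was not called, at -0.19 and -0.15. Sox8, the closest relative of Sox9 together with Sox10, fell by 0.53 (SE 0.118) in WT and 0.66 (SE 0.126) in KO on the log2 scale, while Sox10 was not called, at 0.10 and 0.14.

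A wider list of 62 homeostatic astrocyte genes served as the setting for the 10. In WT 2 of 60 listed genes rose and 17 fell, where 5.2% of all genes rose and 5.4% fell, with a median difference of -0.23. In KO 5 of 61 rose and 18 fell, where 5.11% of all genes rose and 4.94% fell, with a median of -0.25. Of the genes listed in both tables, 13 were called in both genotypes, 2 higher and 11 lower, which is 68.4% of the WT calls and 56.5% of the KO calls. Slc14a1, a urea transporter, rose by 1.97 (SE 0.188) in WT and 1.88 (SE 0.141) in KO, and Ednrb, an endothelin receptor, by 0.64 (SE 0.0866) and 0.69 (SE 0.107). Also among the 5 that rose in KO were Ppp1r3c, a glycogen-targeting subunit of protein phosphatase, by 0.50 (SE 0.0788), and Dio2, which activates thyroid hormone, by 0.54 (SE 0.0954). In WT these stood at 0.10 (SE 0.118) and 0.17 (SE 0.110) without a call, and in neither gene did the interaction pass.

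Genes that fell included Glul, the glutamine synthetase of the glutamate cycle, by 0.47 (SE 0.0751) in WT and 0.37 (SE 0.0525) in KO on the log2 scale. Daam2, a formin, fell in WT (-0.67, SE 0.104) and in KO (-0.48, SE 0.102), as did Etnppl, a phospholyase of astrocytes (-1.04, SE 0.172, and -1.15, SE 0.234). Ttyh1, a chloride channel family member, fell in both (-0.37, SE 0.0740, in WT and -0.44, SE 0.0595, in KO). So did Id4, an inhibitor of differentiation (-0.54, SE 0.102, and -0.67, SE 0.107), and Ntsr2, a neurotensin receptor (-0.56, SE 0.145, and -0.47, SE 0.0938). Rorb, a nuclear receptor that cortical neurons also express, fell in WT (-0.78, SE 0.125) and was at -0.55 without a call in KO (SE 0.175, adjusted p = 0.0678). The glutamate transporter Slc1a2 fell in WT (-0.23, SE 0.0576, adjusted p = 0.0211) and was at the same -0.23 in KO without a call (SE 0.0699, adjusted p = 0.0572). Slc1a3, the other astrocyte glutamate transporter, was not called, at -0.11 and -0.04.

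Genes of the complex that anchors Aqp4 in the endfoot membrane were examined next. Of 16 listed genes of the anchoring complex and the endfoot, 1 rose and 3 fell in WT, and none rose and 1 fell in KO, where 10.6% and 10% of all genes were called, with medians of -0.06 and -0.10. Dmd, whose short product links Aqp4 to the membrane complex, fell in both (-0.31, SE 0.0584, and -0.27, SE 0.0680). Values are per gene and do not separate that product from other products of Dmd. Dtna, a dystrobrevin of the same complex, fell in WT (-0.26, SE 0.0630), and the laminin gene Lamc1 rose there (0.37, SE 0.0914). In KO they stood at -0.21 (SE 0.0721) and 0.19 (SE 0.0794) without a call. Lama2, another laminin gene, fell in WT (-0.25, SE 0.0718, adjusted p = 0.0431) but was not called with the animal as a block (adjusted p = 0.0698). The potassium channel gene Kcnj10 was not called, at 0.15 (SE 0.0974) in WT and 0.17 (SE 0.0899) in KO.

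The reactive astrocyte list had larger differences than the members. In WT 17 of 20 listed genes rose and none fell, where 5.2% of all genes rose. In KO 15 of 17 rose and none fell, where 5.11% of all genes rose. Of the 23 genes in the list, 22 were listed in the table of PI KO and PI WT but only 11 in that of CL KO and CL WT. Some may thus be listed beside CL only through PI, where they are high, which can raise these shares and the medians. Median differences were 2.23 and 1.82, and the first becomes 2.14 when the 3 genes at or under the limit of 3 reads in CL WT are set at their lower bounds. Gfap, the astrocyte intermediate filament, rose by 1.88 (SE 0.107) in WT and 2.19 (SE 0.164) in KO, from medians of 71.3 and 60.2 CPM to 259 and 282 CPM. Vim, another filament gene, rose by 1.45 (SE 0.105) in WT and 1.62 (SE 0.150) in KO, and Lcn2, an iron-binding acute-phase protein, by 3.38 (SE 0.195) and 3.52 (SE 0.204). Cd44, a hyaluronan receptor, rose by 2.36 (SE 0.163) and 1.63 (SE 0.302). Serpina3n, a protease inhibitor, rose by 2.54 (SE 0.209) and 2.72 (SE 0.106), and Osmr, the oncostatin M receptor, by 2.51 (SE 0.243) and 2.62 (SE 0.202). Several of these, Lcn2, Cd44 and Cd14 among them, are also made by immune or vascular cells.

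**Figure D4:**
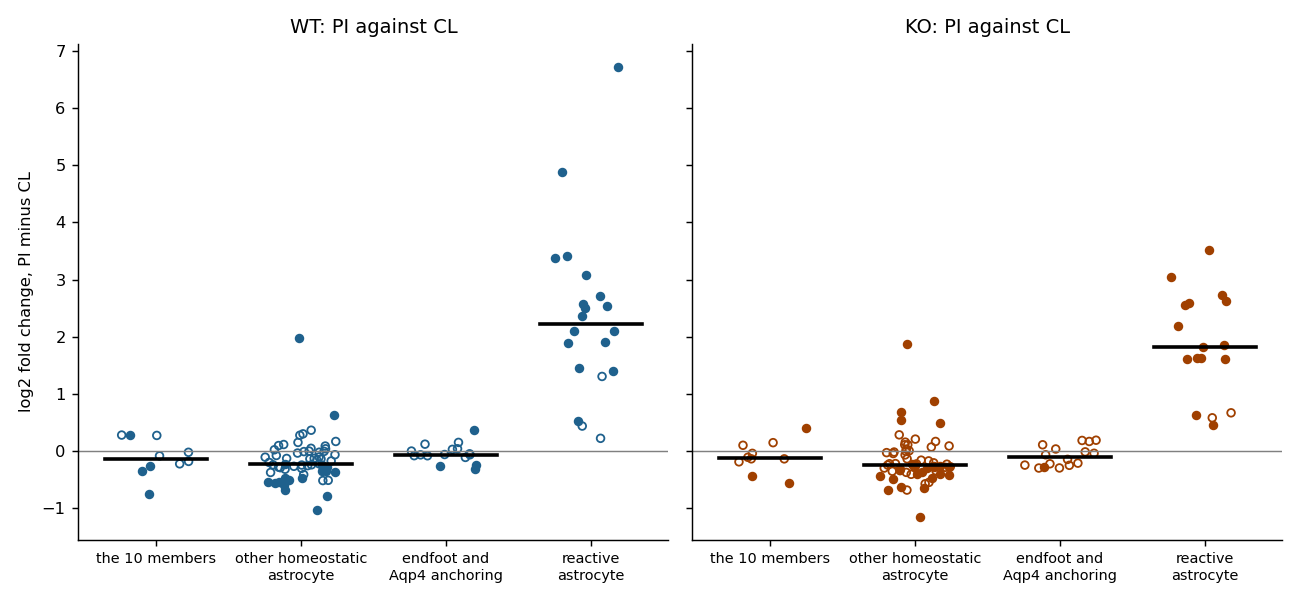
Log2 difference of PI from CL for every listed gene of 4 gene lists, in WT (left) and KO (right), with filled circles for genes called at an adjusted p of 0.05 and a bar at the median. The 10 members lie between -0.76 and 0.41, close to the other homeostatic genes, while the reactive genes reach much higher values.

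Markers of other cells moved in the same comparison. The neuron sum was 7368 to 7941 CPM in CL WT and 6169 to 6828 CPM in PI WT, and 7474 to 7725 and 5928 to 6539 CPM in KO, with 4 of 10 markers lower in each genotype and 1, Gad2, higher in KO. The microglia sum was 190 to 202 CPM in CL WT and 220 to 247 CPM in PI WT, without overlap. In KO it was 202 to 219 CPM in CL and 245 to 292 CPM in PI, also without overlap, and 6 of 10 microglia markers were higher and 1 lower in each genotype. Of all genes, 5.2% were called higher and 5.4% lower in WT, and 5.11% and 4.94% in KO. The endothelial sums overlapped, although 8 of 9 markers had a positive difference in each genotype. Their median differences were 0.40 in WT and 0.19 in KO, with 0 called in WT and 1 called lower in KO. None of the 10 neutrophil and monocyte markers was listed in either table of PI and CL. In the table of PI KO and PI WT 2 of them were listed and neither was called. Their sum there was 3.39 to 9.32 CPM in PI KO and 2.20 to 4.12 CPM in PI WT, with a median difference of 0.96. What part these shifts have in the member values was not tested.

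Genes whose level most resembled that of Aqp4 over libraries were ranked by the smaller of the Pearson correlations over the 12 libraries of the 2 tables of PI and CL, among 14181 genes. The first 5 were Cd44 (0.960 in WT and 0.952 in KO), the leukocyte phosphatase gene Ptprc (0.981 and 0.951), the lysosomal membrane gene Lamp2 (0.952 and 0.95), the actin-nucleating subunit gene Arpc1b (0.963 and 0.949) and Ms4a6b, a membrane protein gene of immune cells (0.948 and 0.953). All 5 were called higher in PI in both genotypes, from 0.22 for Lamp2 to 2.36 for Cd44 in WT. The 12 libraries share the split into PI and CL, and values are drawn in, so these correlations describe the tables only. No member was near the top. Aldh1l1 came closest (0.738 and 0.735, rank 992), and Slc39a12 ran opposite to Aqp4 (-0.846 and -0.915).

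The comparison of KO with WT asked whether loss of ciRS-7 altered the members within either kind of cortex. In PI none of the 10 was called, where 0.0208% of 14452 genes were called, and 0 had an unadjusted p under 0.05 (5.75% of all genes did). Differences in PI ran from -0.20 for Fgfr3 to 0.18 for Slc39a12, with adjusted p of at least 0.854, and inner values overlapped for all 10. For Aqp4 the difference in PI was 0.11 (95% interval -0.08 to 0.30) and for Gja1 0.06 (-0.12 to 0.24), so the intervals allow changes of about the size of those between PI and CL in WT for Aqp4 but not for Gja1.

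In CL none of the 10 was called either, where 0.0279% of 14323 genes were called, and 2 had an unadjusted p under 0.05 (5.73% of all genes did). These were Sox9, which differed by 0.34 without overlap of the inner values (SE 0.111, adjusted p = 0.716), and Gja1, which differed by 0.14 (SE 0.0625, adjusted p = 0.835) with overlap. S100b differed by -0.13 (SE 0.0642, adjusted p = 0.878) without overlap. Beside it, the oligodendrocyte markers had a median difference of -0.17 in CL, with 0 of 10 positive and none called, and their sum was 1742 to 2384 CPM in CL KO and 2188 to 2389 CPM in CL WT. Their part in the S100b values was not tested. Ordered by their medians, with WT and KO scaled in separate tables, Aqp4 ran from PI KO and PI WT down to CL WT and CL KO, Gja1 from CL KO and CL WT down to PI KO and PI WT, and Slc39a12 from CL WT and CL KO down to PI KO and PI WT. In each order the neighbours from the same kind of cortex were not called apart. Over all genes the inner values did not overlap in 8.67% in CL and 8.97% in PI. Aqp4 itself differed by -0.03 (95% interval -0.17 to 0.12) in CL. The log2 ratio of Aqp4 to Gja1 was lower in CL KO (-0.732 to -0.585) than in CL WT (-0.559 to -0.395), without overlap, as a description of a pair chosen for its difference between PI and CL. Limma on the deposited values called 2 members in PI and 3 in CL, but the drawn-in values understate the spread that test relies on.

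**Figure D5:**
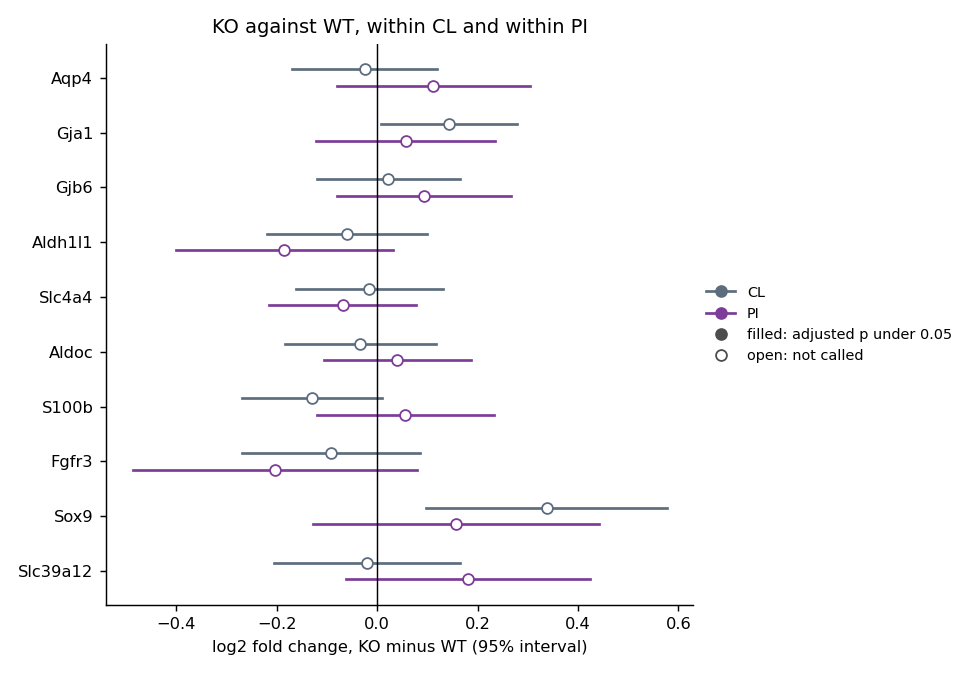
Log2 difference of KO from WT for each member in CL (grey) and in PI (purple), with the 95% interval as a line. All points are open, since no member passed an adjusted p of 0.05, and the intervals of Sox9 and Gja1 in CL are the only ones that exclude 0.

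Whether the PI and CL difference itself depended on the genotype was tested as an interaction over 14211 genes. No member was called, none had an unadjusted p under 0.05 (4.55% of all genes did), and 0% of all genes were called (limma's empirical Bayes step on trimmed means), while limma on the deposited values called 1 member, S100b. The KO difference minus the WT difference ran from -0.18 for Sox9 to 0.20 for Slc39a12, each with an adjusted p = 0.992. For Aqp4 it was 0.14 (95% interval -0.10 to 0.38), for Gja1 -0.08 (-0.31 to 0.14), for Gjb6 0.07 (-0.15 to 0.29) and for S100b 0.18 (-0.03 to 0.39). The oligodendrocyte markers had a median interaction of 0.25, with 10 of 10 positive and none called, whose part in the S100b value was likewise not tested. For Gjb6, called in WT and not in KO, a difference between the genotypes was thus not shown.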

How the data were processed

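Per the labels' protocols, cortex RNA was extracted with TRIzol and treated with TURBO DNA-free. RiboCop removed ribosomal RNA and the CORALL kit for total RNA gave the libraries. The deposited values are log2 CPM in 4 tables, 1 for each pair of groups, each scaled on its own, so that 1 library's values in its 2 tables are 0.0256 to 0.0364 apart (median over genes, log2). The submitters' processing notes name the build mm10. The aligner, counter, annotation, use of strand, gene filter and scaling are not given in the sources used here. In 100% of genes the 2 lowest and the 2 highest values of a group were tied at its quartiles, a step no label records, so 4 inner values per gene and group were recovered and the lowest and highest were not.

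A group's trimmed mean is the mean of its 4 recovered values, with an error from the Winsorized sum of squares and 6 degrees of freedom (12 in the interaction). Variances were moderated by limma (version 3.58.1, R 4.3.3) with a prior that follows expression. Tests were two-sided with Benjamini-Hochberg adjustment over all genes of the table. On simulated data with unlinked libraries, 4.23% of the unpaired test's calls were false, against 15.9% with the replicate block. With a correlation of 0.5 within animals these were 0.4% and 10.6%. Without changes, 5.19% of unpaired p fell under 0.05 with unlinked libraries and 1.31% with that correlation. The unpaired test was thus conservative only at the simulated correlation of 0.5. Residual correlations in the data were lower, at 0.0860 in WT and 0.0629 in KO. Both tests recovered nearly all planted changes. These were at least 0.5 on the log2 scale, above every member difference except those of Slc39a12, so power for the other members was not tested. Depth came from the step that made 69.8% to 91.2% of low values whole, within 0.03 read. Each column of values matched 1 sample's title, with 0 columns unused.

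Groups follow the sample titles. The genotype labels show that CL and PI libraries with 1 number come from 1 animal. Residuals of the 2 libraries of an animal had a mean correlation of 0.0860 in WT and 0.0629 in KO, against -0.0172 and -0.0125 for libraries of different animals. The block used the Winsorized covariance of these pairs, with 3 degrees of freedom. WT and KO animals share only numbers.

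Members, relatives and gene lists were chosen with earlier results of these data known. Named are all 10 members, every called relative, up to 4 called genes per direction with the smallest p from each list, and the 5 genes most like Aqp4 among genes of at least 1 CPM. The glutamate transporters, Kcnj10 and the relatives that were not called were named in addition for their known roles. Lists were described by counts and medians with no set test.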

Additional observations from a re-analysis of the deposited data

How the results depend on the processing

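Over 1130 values of the members under the alternatives, 1056 kept direction and side of the threshold, 13 lost and 37 gained a call, none reversed a call and 24 changed sign without a call. Over all genes, limma on the deposited values called 6459 for PI against CL in WT, 6666 in KO, 2388 for KO against WT in PI, 2311 in CL and 1940 for the interaction, and 9, 7, 2, 3 and 1 of the members. With the replicate block in that test these were 6614, 6759, 1800, 1868 and 2216 genes and 9, 8, 1, 3 and 1 members. With the replicate block on trimmed means, 8 members were called in WT and no other count of members changed, while 2275 genes were called in WT, 2154 in KO, 6 in PI, 85 in CL and 1 for the interaction. WT and KO libraries paired by number share nothing but that number, with mean correlations of -0.0136 in PI and -0.00579 in CL. With no trend in the prior variance, 1015 genes and 1 member were called in WT and 739 genes and 2 members in KO. All of these members were lower in PI, so Aqp4 lost its call in both genotypes, and the cause was not tested. Leaving out 1 library gave 1117 to 1468 genes in WT, 900 to 1602 in KO (900 without CL KO replicate 5, 922 without PI KO replicate 2), 3 to 4 in PI, 3 to 7 in CL (7 without CL KO replicate 1) and 0 for the interaction, with 3 to 4 members in WT, 3 in KO and 0 elsewhere. Depth limits the members little, since all stood above the limit of 3 reads, but 2 of the 6 values of each group cannot be recovered.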
